A study of Mus musculus with 24 samples.

Results

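Liver expression was compared between mice given a constitutively active STAT5b and mice given rat IGF1, both on a background in which the growth hormone (GH) receptor had been lost from hepatocytes. The comparison took every coding feature (an exon-collapsed gene model with a RefSeq NM accession) in the 12 libraries of these groups, out of 24 libraries in all, and set the STAT5bCA group value against the rIGF1 group value. Of 20879 coding features, 11056 reached 1 TPM (a transcript level scaled to length and library) in the higher of the groups and were counted. All mice were Ghr fl/fl on the C57BL/6 strain, labelled male, injected at 10 to 12 weeks of age and examined 7 days later, although the treatment protocol also names females.

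The aHepGHRkd_STAT5bCA group received an AAV8 vector with Cre recombinase at 1.5 (in units of 1e+11 genome copies), one with FLAG-tagged mouse STAT5bCA at 0.75 and, by difference, 1.25 of an empty (Null) vector. The aHepGHRkd_rIGF1 group received Cre at 1.5 and rat IGF1 at 2, which leaves 0 for Null. The aHepGHRkd group received Cre at 1.5 and Null, 2 by difference, and Control mice received only Null, 3.5. The total was 3.5 throughout, so the empty vector, the transgene dose and the transgene differ together between the STAT5bCA and rIGF1 groups and cannot be told apart. The thyroxine-binding globulin promoter in every vector drives expression in hepatocytes, so other liver cells kept an intact Ghr. RNA came from whole liver, although the labels give the cell type as hepatocyte.

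GH binds its receptor on hepatocytes and activates the kinase JAK2, which phosphorylates STAT5b. STAT5b then enters the nucleus and switches on genes that include Igf1, Igfals and the SOCS-family inhibitors. IGF1 circulates and restrains GH release from the pituitary, while adult mouse hepatocytes have little IGF1 receptor of their own. In mouse liver the sex difference in GH pulses sets male-biased and female-biased expression through STAT5b, with the repressors BCL6 (male-biased) and CUX2 (female-biased) among its effectors.

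All TPM values are the authors' deposited value for a group of 6 libraries, with no value for a single animal. The ratio of STAT5bCA over rIGF1, taken as log2 of (TPM + 0.1) in each group, is therefore a description with no error, no replicate check and no test, and it understates the difference of genes near 0. Depth per library is not known, since TPM keeps none. The tests that bear on these groups are the authors' own, of each against the shared aHepGHRkd group, and because both use the same aHepGHRkd libraries their values are only set side by side. In bulk liver, fewer cells of a type and less RNA per cell cannot be told apart.

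The groups differed widely at the top of the range and little elsewhere. STAT5bCA livers were at least 2-fold higher than rIGF1 livers in 159 coding features, 1.44% of those counted, and at least 2-fold lower in 61, 0.552%. Over all counted features the median log2 ratio was -0.14, so the typical gene stood 1.10-fold higher in the rIGF1 value. Higher features made up 72.3% of those past 2-fold as deposited, 84.4% (189 higher and 35 lower) when that median was subtracted, and 82.4% (197 higher and 42 lower) when the quotient of the authors' deposited ratios to aHepGHRkd was used. At a fold of 1.5, as deposited, the split reversed, with 294 higher and 489 lower. The ratios below are as deposited and can be read against -0.14. A fold of 10 or more was seen in 28 of the 159 higher features and in 6 of the 61 lower ones. Those 6 were the skeletal muscle genes Myh1, Ckm, Mb, Tnnt3, Acta1 and Tnnc2. They reached 1 TPM only through the rIGF1 value, so nothing is read from their number. At least 100 TPM in the higher group was reached by 29 of the higher and 4 of the lower features. The features higher in STAT5bCA thus included abundant liver transcripts as well as genes that were nearly unexpressed with rIGF1.

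**Figure D1:**
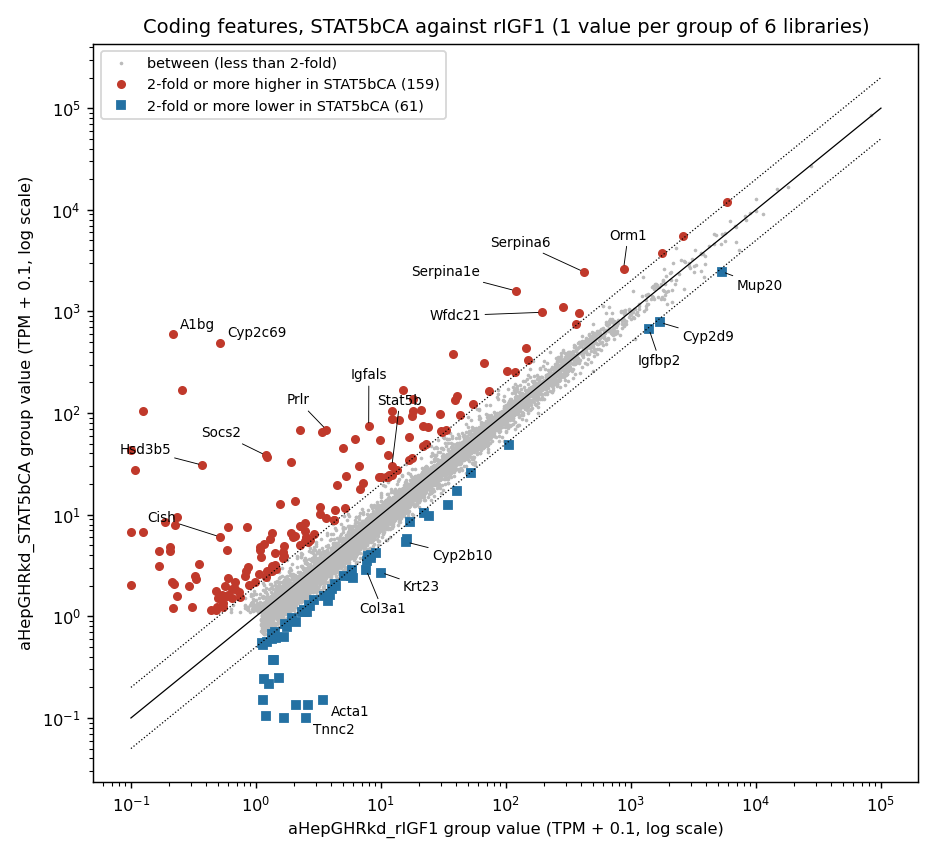
Group value of each counted coding feature in aHepGHRkd_STAT5bCA livers (vertical axis, TPM + 0.1, log scale) against its value in aHepGHRkd_rIGF1 livers (horizontal axis, TPM + 0.1, log scale), 1 point per feature. The solid line marks equal values and the dotted lines 2-fold; 159 features (circles) lie above the upper dotted line, up to A1bg at the far left, and 61 (squares) lie below the lower one, with a cluster of muscle transcripts such as Acta1 and Tnnc2 at the bottom.

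The targeted and supplied genes were read first. Ghr, the GH receptor gene that Cre targets (mm9 chr15:3267755-3533352), stood at 49.4 TPM with STAT5bCA and 58.4 with rIGF1, against 55.1 in aHepGHRkd and 180 in Control, so both groups sat at the knockdown level. Stat5b (chr11:100642045-100711895) stood at 30.02 TPM with STAT5bCA and 12.1 with rIGF1, against 10.6 in aHepGHRkd and 8.44 in Control, and reads of the mouse transgene may be counted with it. Its ratio to aHepGHRkd in the authors' deposited table was 2.91 with STAT5bCA (p = 2.98e-39) and 1.07 with rIGF1 (p = 1). Igf1 (chr10:87321010-87399792) stood at 96.4 TPM with STAT5bCA and 114 with rIGF1, against 26.2 in aHepGHRkd and 143 in Control. The Igf1 log2 ratio between the groups was -0.24, close to the median of all features. The share of rat IGF1 reads counted on the mouse gene is unknown, and the authors' deposited table gives neither ratio to aHepGHRkd a p under 0.05 (3.67 with STAT5bCA, p = 0.162; 3.89 with rIGF1, p = 0.946). By group value, then, the livers compared had similar Ghr RNA and differed in the level counted on Stat5b. How their Igf1 RNA compares cannot be told, since rat IGF1 reads may or may not be in the rIGF1 value.

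Among the GH-STAT5 response and IGF1 axis genes, 16 of 17 were counted, and 6 were at least 2-fold higher in STAT5bCA livers and 2 at least 2-fold lower, around a median log2 ratio of -0.09. The shares over all counted features were 1.44% higher and 0.552% lower. Stat5b was itself supplied by vector, so its place among the 6 is not read as a response. Cish and Socs1 reached 1 TPM only through the STAT5bCA value, so the filter favoured their being higher. Socs2, a feedback inhibitor of GH signalling (chr10:94874124-94879491), stood at 38.3 TPM with STAT5bCA and 1.10 with rIGF1, against 1.48 in aHepGHRkd and 17.6 in Control. The ratio was 32.0-fold, and the STAT5bCA value lay above that of Control. Cish, a SOCS-family inhibitor (chr9:107198990-107205115), stood at 5.95 TPM with STAT5bCA and 0.414 with rIGF1, against 0.468 in aHepGHRkd and 9.21 in Control. Igfals, the gene of the acid-labile subunit of the circulating IGF1 complex (chr17:25014789-25018956), stood at 73.8 TPM with STAT5bCA and 7.88 with rIGF1, against 8.37 in aHepGHRkd and 93.0 in Control. For Cish and Igfals the STAT5bCA value lay below Control but within 2-fold of it, while the rIGF1 value stayed at the knockdown level. Prlr, the prolactin receptor, stood at 68.5 TPM with STAT5bCA and 3.55 with rIGF1, against 4.19 in aHepGHRkd and 9.26 in Control, an 18.8-fold ratio. Socs1, a further cytokine signalling inhibitor, stood at 2.26 TPM with STAT5bCA and 0.496 with rIGF1, against 0.430 in aHepGHRkd and 0.602 in Control. In the authors' deposited table Socs2, Prlr, Cish, Igfals, Socs1 and Stat5b were each higher with STAT5bCA than in aHepGHRkd (ratios of 2.91 to 26.7, p of 8.44e-07 or less), and with rIGF1 their ratios were 0.690 to 1.08 with p = 1.

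The lower members were IGF-binding proteins. Igfbp3, the main carrier of IGF1 in serum, stood at 5.70 TPM with STAT5bCA and 15.9 with rIGF1, against 8.38 in aHepGHRkd and 8.75 in Control. Neither of its ratios to aHepGHRkd passed in the authors' deposited table (0.701 with STAT5bCA, p = 1; 1.76 with rIGF1, p = 0.827). Igfbp3 is made in liver largely by non-parenchymal cells. As given further on, stellate markers stood higher in the same rIGF1 value, while Kupffer cell and sinusoidal endothelial markers differed little. Whether any of these cells bear on the Igfbp3 difference was not tested. Igfbp2, a binding protein of fasting and low GH action, stood at 674 TPM with STAT5bCA and 1391 with rIGF1, against 1211 in aHepGHRkd and 847 in Control, a log2 ratio of -1.05 that became -0.90 with the median subtracted. Igfbp2 fell with STAT5bCA relative to aHepGHRkd in the authors' deposited table (ratio 0.575, p = 0.00132). The other 8 counted members lay within 2-fold. They were Igfbp1 (log2 ratio -0.60), Jak2 (-0.60), Stat5a (-0.52), Socs7 (-0.43), Igf1 (-0.24), Ghr (-0.24), Igfbp4 (0.06) and Socs3 (0.18). The IGF1 receptor gene Igf1r was not counted, at 0.248 TPM with STAT5bCA and 0.344 with rIGF1.

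**Figure D2:**
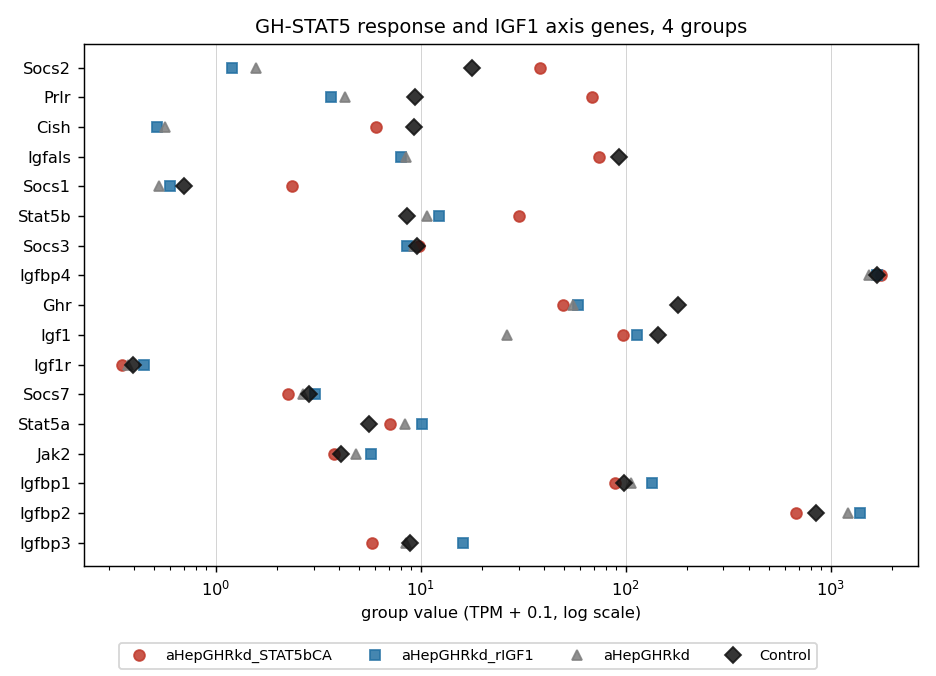
Group values (horizontal axis, TPM + 0.1, log scale) of the 17 genes of the GH-STAT5 response and IGF1 axis, 1 point per group and gene, ordered by the ratio of aHepGHRkd_STAT5bCA over aHepGHRkd_rIGF1. For Socs2, Prlr, Cish and Igfals the rIGF1 square sits on the aHepGHRkd triangle and the STAT5bCA circle lies far to the right, whereas for Ghr the circle, square and triangle lie together to the left of Control and for Igf1 the circle and square both lie to the right of the triangle.

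The largest ratios among genes of at least 5 TPM were led by genes of female liver and steroid and drug metabolism. A1bg, a plasma glycoprotein gene expressed in female mouse liver (chr15:60749144-60752825), stood at 600 TPM with STAT5bCA and 0.117 with rIGF1, against 0.228 in aHepGHRkd and 0.154 in Control. Cyp2c69, a female-biased P450 gene (chr19:39917150-39961259), stood at 490 TPM with STAT5bCA and 0.416 with rIGF1, against 0.583 in aHepGHRkd and 3.37 in Control. Both were at the smallest p of the authors' deposited table against aHepGHRkd with STAT5bCA (p = 9e-301), and p = 1 with rIGF1. Their STAT5bCA values were far above those of Control.

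Sult3a1, a sulfotransferase of female liver (chr10:33577528-33599281), stood at 168 TPM with STAT5bCA and 0.154 with rIGF1, against 0.228 in aHepGHRkd and a listed 0 in Control. Its relative Sult3a2 was at 43.5 TPM with STAT5bCA and listed at 0 in the other groups. These genes were close to silent in the other 3 groups and abundant with STAT5bCA.

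Hsd3b1, a 3-beta-hydroxysteroid dehydrogenase of adrenal and gonad (chr3:98656117-98663717), stood at 27.2 TPM with STAT5bCA and 0.00817 with rIGF1, against 0.00803 in aHepGHRkd and 0.00737 in Control. Its male-biased liver relative Hsd3b5 (chr3:98422559-98449457) stood at 30.6 TPM with STAT5bCA and 0.272 with rIGF1, against 0.169 in aHepGHRkd and 96.0 in Control. The 2 family members thus ended at similar values with STAT5bCA, although Control livers had only Hsd3b5. A2m, a protease inhibitor of the alpha-2-macroglobulin family, stood at 6.66 TPM with STAT5bCA and 0.0241 with rIGF1, and the RIKEN gene 2010106E10Rik at 6.62 TPM with STAT5bCA and a listed 0 with rIGF1. Cux2, the female-biased repressor, stood at 7.82 TPM with STAT5bCA and 0.126 with rIGF1, against 0.0756 in aHepGHRkd and 0.273 in Control. Socs2 and the P450 genes Cyp3a41b, Cyp2c40 and Cyp3a41a were also among them, the P450 genes with log2 ratios of 5.34, 4.93 and 4.91. Cyp3a41a and Cyp3a41b, Cyp2c40 and Cyp2c69, and Sult3a1 and Sult3a2 are near-identical copies whose reads may have been split or shared, so their separate values are uncertain.

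The promoters of 6 genes higher with STAT5bCA are shown: a GH target (Cish), genes nearly silent in male liver (A1bg, Sult3a1 and Hsd3b1) and male-biased genes (Hsd3b5 and Keg1). Cish and Keg1 are not among the 15 largest ratios, and no gene lower with STAT5bCA is shown. Each run is on the gene's strand, 250 bases before to 30 after the RefSeq start on GRCm38.p6, a later build than the mm9 of the expression values. Capitals mark TTCNNNGAA, the core of the site that STAT proteins bind, which is its own reverse complement.
Cish (chr9:107296409-107296688, plus strand): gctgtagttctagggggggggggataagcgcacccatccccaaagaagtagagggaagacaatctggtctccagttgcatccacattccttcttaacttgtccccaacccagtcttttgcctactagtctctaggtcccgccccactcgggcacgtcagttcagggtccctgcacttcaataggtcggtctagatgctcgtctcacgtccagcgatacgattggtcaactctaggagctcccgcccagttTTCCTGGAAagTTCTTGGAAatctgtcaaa
A1bg (chr15:60921241-60921520, minus strand): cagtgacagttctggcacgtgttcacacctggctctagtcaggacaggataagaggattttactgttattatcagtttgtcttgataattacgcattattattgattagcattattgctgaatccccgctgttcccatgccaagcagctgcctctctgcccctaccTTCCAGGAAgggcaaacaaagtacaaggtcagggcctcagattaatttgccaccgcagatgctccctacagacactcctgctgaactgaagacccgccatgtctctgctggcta
Sult3a1 (chr10:33857472-33857751, plus strand): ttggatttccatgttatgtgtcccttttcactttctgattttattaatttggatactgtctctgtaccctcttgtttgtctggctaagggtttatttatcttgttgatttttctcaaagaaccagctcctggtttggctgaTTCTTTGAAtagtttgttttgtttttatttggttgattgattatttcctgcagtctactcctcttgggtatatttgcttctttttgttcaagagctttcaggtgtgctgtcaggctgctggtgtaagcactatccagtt
Hsd3b1 (chr3:98859765-98860044, minus strand): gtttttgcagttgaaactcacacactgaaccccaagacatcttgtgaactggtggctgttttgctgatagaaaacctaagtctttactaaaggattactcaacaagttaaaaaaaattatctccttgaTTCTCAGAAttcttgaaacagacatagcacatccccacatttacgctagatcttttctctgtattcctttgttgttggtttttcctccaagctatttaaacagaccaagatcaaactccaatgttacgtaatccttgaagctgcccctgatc
Hsd3b5 (chr3:98645505-98645784, minus strand): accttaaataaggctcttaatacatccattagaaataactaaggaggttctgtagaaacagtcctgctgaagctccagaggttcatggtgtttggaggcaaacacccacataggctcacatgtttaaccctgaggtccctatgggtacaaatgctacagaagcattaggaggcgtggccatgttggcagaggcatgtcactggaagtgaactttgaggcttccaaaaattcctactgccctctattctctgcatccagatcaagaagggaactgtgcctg
Keg1 (chr19:12695540-12695819, plus strand): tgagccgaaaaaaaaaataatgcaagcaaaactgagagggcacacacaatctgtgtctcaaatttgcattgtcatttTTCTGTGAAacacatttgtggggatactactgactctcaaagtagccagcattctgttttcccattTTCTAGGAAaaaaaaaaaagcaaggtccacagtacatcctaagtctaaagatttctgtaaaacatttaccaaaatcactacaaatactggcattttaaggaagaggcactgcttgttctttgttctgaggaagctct
Those of A1bg, Sult3a1 and Hsd3b1 held 1 match each, starting at -84, -109 and -122 from the start site. Cish held 2, at 1 and 12, on the transcribed side of its start, and Keg1 held 2, at -173 and -107. Hsd3b5 held 0 in this window. Igfals and Bcl6, read but not shown, have 3 and 2 RefSeq promoters, and for each the promoter with the most matches was taken. That of Igfals held 1 match. That of Bcl6, whose value was lower with STAT5bCA than with rIGF1 though within 2-fold, held 3. A match is a description of the letters and not a bound site. Of 27025 genes with a promoter in the RefSeq table, 9.55% held the motif within 250 bases before to 50 after a start. A gene with several promoters was taken to hold it if any of them did, here and in the counts below. Of the 15 genes with the largest ratios, 11 had a promoter in the table and 4 of the 11 held it, so most did not, and the 6 shown were chosen and are no sample of the rest. It was held by 20 of 117 higher features with a promoter, 5 of 38 lower ones and 734 of 8876 counted features (8.27%). With a promoter for under 80% of the 159 and of the 61, these counts are given as they are and nothing is read from them.

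**Figure D3:**
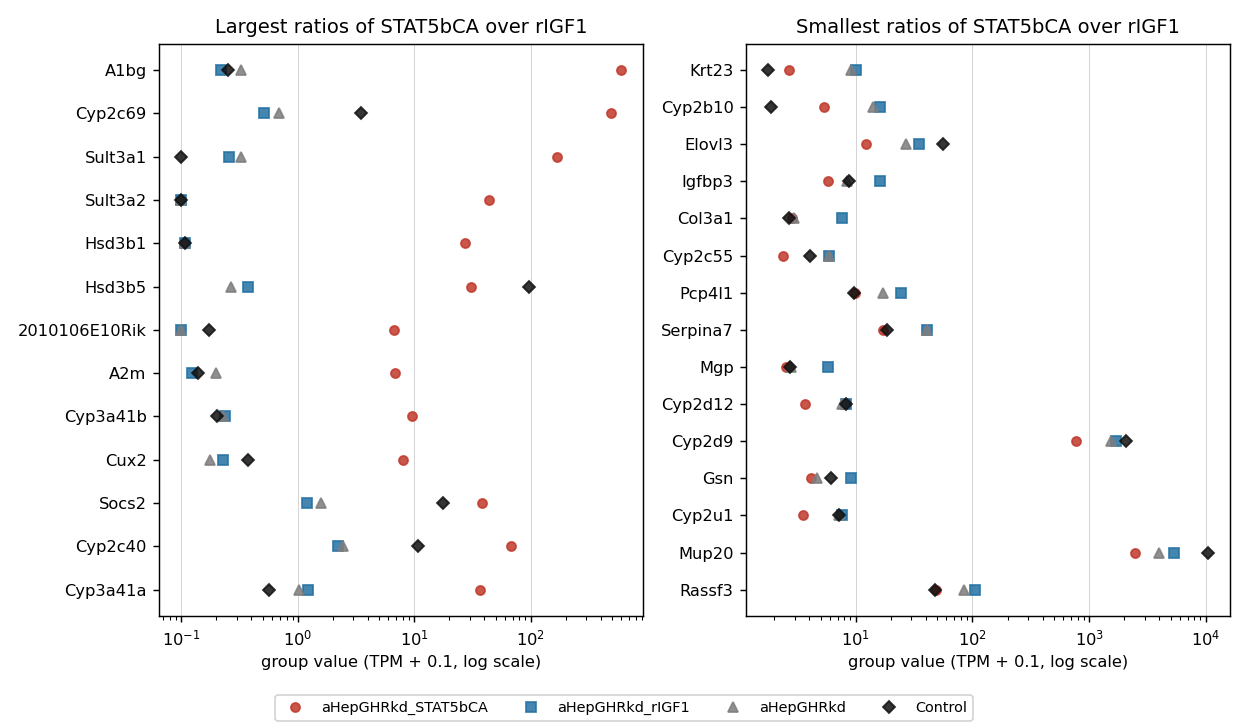
Group values (horizontal axes, TPM + 0.1, log scale) of 13 of the 15 coding genes with the largest (left) and the 15 with the smallest (right) ratio of aHepGHRkd_STAT5bCA over aHepGHRkd_rIGF1 among those of at least 5 TPM in the higher group. On the left each STAT5bCA circle lies right of the rIGF1 square by a log2 ratio of at least 4.91, and for most genes the Control diamond lies with the square; on the right the circles lie left of the squares by 2.16-fold to 3.73-fold.

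Sex-biased genes made up many of the differences, in both classes. Of 34 counted female-biased genes, 17 were at least 2-fold higher with STAT5bCA and 1 lower, with a median log2 ratio of 0.95. The shares over all counted features were 1.44% and 0.552%. Besides A1bg, Cyp2c69, Sult3a1, Cux2, Cyp2c40 and Cyp3a41a, the higher ones included Nipal1 (4.69 TPM with STAT5bCA and 0.105 with rIGF1), Cyp2a4, a steroid hydroxylase (378 and 37.9), and the acyl-CoA thioesterase Acot3 (107 and 20.8). Nipal1 matched its Control value of 4.62 TPM, while Cyp2a4 and Acot3 exceeded theirs of 13.7 and 19.5. A1bg, Cyp2c69, Sult3a1, Cux2 and Nipal1 reached 1 TPM only through the STAT5bCA value, so the filter favoured their being higher. Other female-biased genes were lower or similar. Cyp2b10, a target of the receptor CAR, was the 1 lower gene, at 5.27 TPM with STAT5bCA and 15.9 with rIGF1, against 14.1 in aHepGHRkd and 1.80 in Control. Cyp2b9 stood at 196 TPM with STAT5bCA and 244 with rIGF1, against 287 in aHepGHRkd and 1.35 in Control, so this female-biased gene stayed far above Control in both groups. Cd36, a fatty acid transporter, was likewise near the knockdown level in both, at 51.3 TPM with STAT5bCA and 46.9 with rIGF1, against 57.4 in aHepGHRkd and 19.6 in Control.

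Of 30 counted male-biased genes, 12 were at least 2-fold higher with STAT5bCA and 4 lower, with a median log2 ratio of 0.64. With the series median subtracted 12 remained higher and 1 lower. Serpina1e, an alpha-1-antitrypsin gene of male mouse liver, stood at 1595 TPM with STAT5bCA and 119 with rIGF1, against 112 in aHepGHRkd and 9135 in Control. Slco1a1, an organic anion uptake carrier, stood at 45.5 TPM with STAT5bCA and 4.85 with rIGF1, against 3.20 in aHepGHRkd and 147 in Control. Selenbp2, a selenium-binding protein gene, stood at 137 TPM with STAT5bCA and 17.9 with rIGF1, against 18.7 in aHepGHRkd and 446 in Control. In each of these 3 genes STAT5bCA stood several-fold above rIGF1 and at least 3-fold below Control.

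Keg1, a glycine N-acyltransferase-like gene, stood at 105 TPM with STAT5bCA and 12.1 with rIGF1, against 129 in Control, and Cyp7b1, an oxysterol hydroxylase, at 146 and 40.7, against 141 in Control. These stood close to Control with STAT5bCA. The rest of the 12 were Clec2h, Cyp4a12a, Cyp4a12b, Ugt2b38, C6 and Moxd1, which was listed at 0 with rIGF1, and Hsd3b5. Clec2h, Moxd1 and Hsd3b5 reached 1 TPM only through the STAT5bCA value, so the filter favoured their being higher. Cyp4a12a and Cyp4a12b, and Serpina1e with its relatives, share sequence and may share reads.

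The 4 lower male-biased genes were Elovl3, Cyp2d9, Cyp2u1 and Mup20. Elovl3, a fatty acid elongase, stood at 12.3 TPM with STAT5bCA and 34.6 with rIGF1, against 26.7 in aHepGHRkd and 56.3 in Control. Mup20, a urinary pheromone protein, stood at 2462 TPM with STAT5bCA and 5344 with rIGF1, against 3964 in aHepGHRkd and 10536 in Control, and reads of Mup copies may be shared. All 4 were lower with STAT5bCA than in aHepGHRkd in the authors' deposited table (ratios 0.479, 0.523, 0.501 and 0.644, largest p = 0.024, for Mup20), and their rIGF1 ratios were 1.02 to 1.25 with p = 1. Cyp2d9, Cyp2u1 and Mup20 came out just under 2-fold once the series median was subtracted (largest log2 difference -0.995, for Cyp2d9). Of 18 counted Mup genes, Mup20 was the only one past 2-fold in either direction. Mup7 stood at 271 TPM with STAT5bCA and 156 with rIGF1, against 2162 in Control, and Mup21 at 88.2 and 86.4, against 696 in Control, so both groups stayed well under Control.

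Among 17 transcription factors under GH control, Cux2 and Onecut1 were at least 2-fold higher and 0 lower, around a median log2 ratio of -0.12. Onecut1 (HNF6) stood at 8.78 TPM with STAT5bCA and 4.13 with rIGF1, against 3.45 in aHepGHRkd and 9.72 in Control. Bcl6, the male-biased repressor, stood at 9.83 TPM with STAT5bCA and 17.9 with rIGF1, against 16.6 in aHepGHRkd and 6.03 in Control, a log2 ratio of -0.86. It was lower with STAT5bCA than in aHepGHRkd in the authors' deposited table (ratio 0.610, p = 7.37e-06) and stood at a ratio of 1.01 with rIGF1 (p = 1). Hnf4a, a master regulator of hepatocytes, stood at 226 TPM with STAT5bCA and 268 with rIGF1.

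By family, 17 of 68 counted Cyp genes were at least 2-fold higher with STAT5bCA and 5 lower. Of 11 Sult genes 4 were higher and 0 lower, and of 208 Slc genes 8 were higher and 0 lower. Over all counted features 1.44% were higher and 0.552% lower. Sult3a1, Sult3a2 and Sult2a2 reached 1 TPM only through the STAT5bCA value. So did Cyp2c69, Cyp3a41b and Cyp2g1, and Slc39a5, Slc22a26 and Slc22a28. For these genes the filter favoured their being higher. Copies that may share reads, such as Sult3a1 and Sult3a2, are counted separately, so the family counts are only a description. The Cyp genes that were higher belonged mainly to the 2a, 2c, 3a and 4a groups and the 5 lower ones were Cyp2b10, Cyp2c55, Cyp2d12, Cyp2d9 and Cyp2u1. Both named xenobiotic receptor targets past 2-fold, Cyp2b10 and Cyp2c55, were lower, and the list median over 21 genes was -0.36. Cyp3a11, the main drug-metabolising P450 of mouse liver, stood at 4045 TPM with STAT5bCA and 7381 with rIGF1, against 6670 in aHepGHRkd and 3627 in Control, just within 2-fold.

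Among genes outside the sex-biased lists, 5 are given here, 4 of them chosen after their values were seen. Serpina6, which encodes corticosteroid-binding globulin, stood at 2452 TPM with STAT5bCA and 419 with rIGF1, against 494 in aHepGHRkd and 216 in Control. Lifr, the receptor for leukemia inhibitory factor, stood at 167 TPM with STAT5bCA and 14.8 with rIGF1, against 13.7 in aHepGHRkd and 31.4 in Control. Trf, transferrin, stood at 11873 TPM with STAT5bCA and 5833 with rIGF1, against 6070 in aHepGHRkd and 10000 in Control. Fabp5, a fatty acid binding protein, stood at 65.1 TPM with STAT5bCA and 3.30 with rIGF1, against 4.12 in aHepGHRkd and 82.8 in Control. Urad, an enzyme of uric acid breakdown, stood at 86.5 TPM with STAT5bCA and 12.1 with rIGF1, against 12.2 in aHepGHRkd and 92.2 in Control. For Trf, Fabp5 and Urad STAT5bCA livers stood near Control, while for Serpina6 and Lifr they overshot it.

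Lipid and glucose genes differed little. Of 24 counted genes of de novo lipogenesis and triglyceride synthesis, 1 was past 2-fold, and the list median of -0.15 lay close to the series median of -0.14. That gene was Acacb, acetyl-CoA carboxylase 2, at 23.5 TPM with STAT5bCA and 11.3 with rIGF1, against 10.1 in aHepGHRkd and 17.7 in Control. Fasn, fatty acid synthase, stood at 53.8 TPM with STAT5bCA and 65.8 with rIGF1, against 64.2 in aHepGHRkd and 41.9 in Control, and the desaturase gene Scd1 stood at 2489 and 3618, against 3694 in aHepGHRkd and 2267 in Control. For both genes the STAT5bCA value lay between rIGF1 and Control, and the authors' deposited table called neither against aHepGHRkd (Fasn ratios 0.874 with STAT5bCA and 0.962 with rIGF1, both p = 1; Scd1 ratios 0.697, p = 0.198, and 0.917, p = 1). Of 28 lipid uptake and droplet genes, Acot1, a cytosolic thioesterase, was higher (122 TPM with STAT5bCA and 54.5 with rIGF1). Of 27 PPAR alpha and fatty acid oxidation genes, the omega-hydroxylases Cyp4a10 (962 and 385 TPM) and Cyp4a14 (747 and 366 TPM) were higher. 

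No gene of the lists for glycolysis (22 counted), gluconeogenesis and glycogen (19), insulin signalling (21), cholesterol synthesis (21), the circadian clock (17) or periportal zonation and the urea cycle (19) was past 2-fold. Their median log2 ratios were -0.23, -0.26, -0.29, 0.21, -0.24 and -0.33. Pck1, the gluconeogenic enzyme PEPCK, stood at 1839 TPM with STAT5bCA and 1626 with rIGF1, against 1450 in aHepGHRkd and 2835 in Control. In cholesterol synthesis the largest ratio was that of Mvd (24.2 TPM with STAT5bCA and 12.5 with rIGF1), the 1 gene of that list past 2-fold with the series median subtracted. In bile acid handling, Cyp7b1 and Slco1a1 were the only members past 2-fold of 22 counted, and Slc10a1, the bile acid importer NTCP, stood at 396 TPM with STAT5bCA and 286 with rIGF1, against 282 in aHepGHRkd and 563 in Control.

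**Figure D4:**
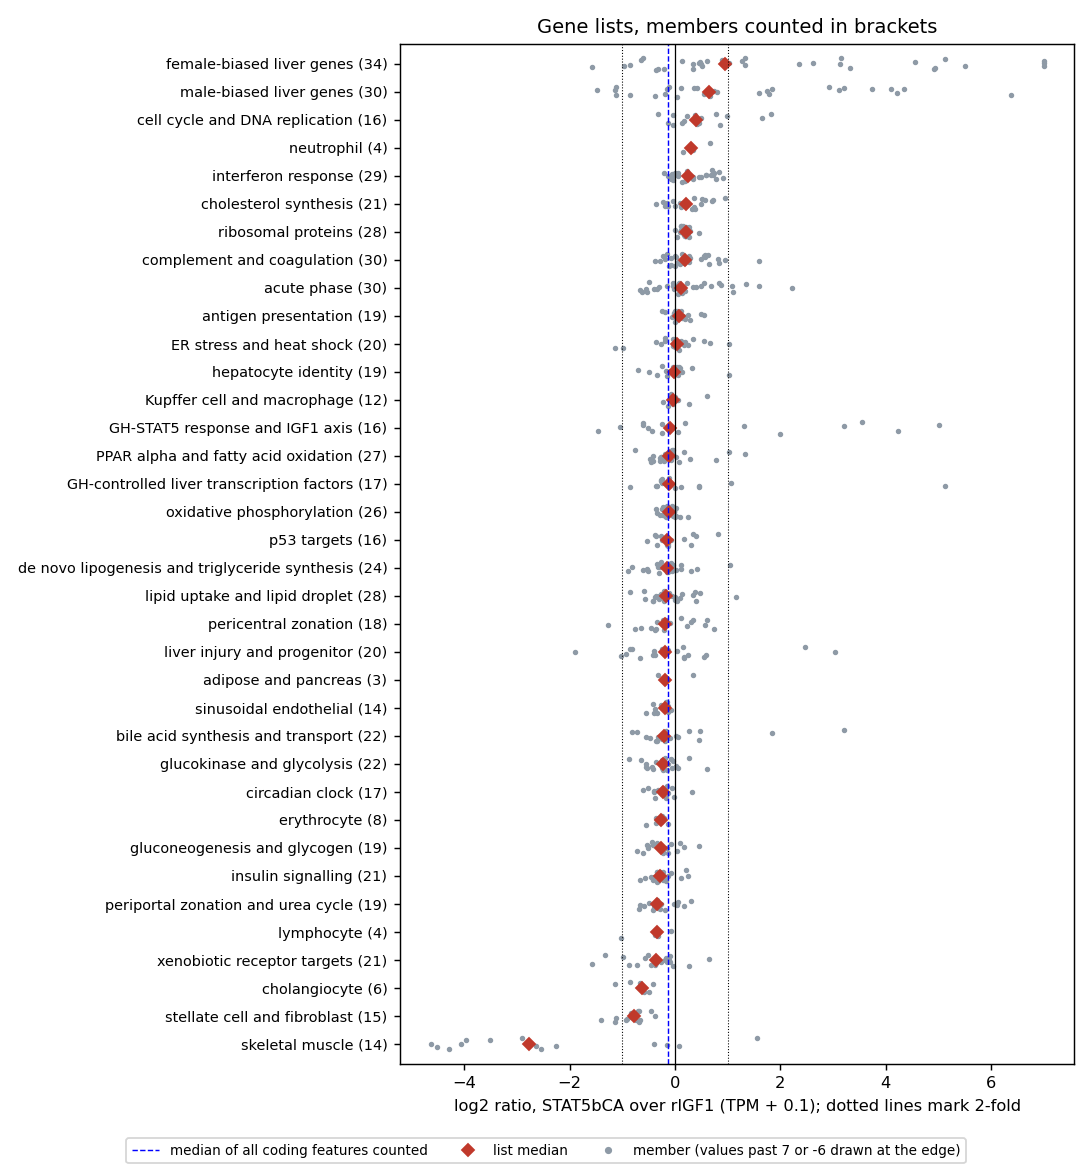
Log2 ratio of aHepGHRkd_STAT5bCA over aHepGHRkd_rIGF1 (horizontal axis, from TPM + 0.1) for the counted members of each gene list (grey points, vertical scatter only to separate them; values past 7 are drawn at 7), with the list median (diamond) and the number of members counted in brackets. The dashed line is the median of all counted features, -0.14; the medians of the sex-biased lists lie right of it at 0.95 and 0.64, those of lipogenesis, lipid uptake and PPAR alpha lie close to it at -0.15, -0.16 and -0.11, and the stellate list lies left of it at -0.78. The skeletal muscle list, farthest left, holds members that were counted mainly through their rIGF1 value.

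Acute phase genes differed in a way that rested partly on the rIGF1 value. Of 30 counted, 5 were at least 2-fold higher with STAT5bCA and 0 lower, with a median of 0.11. Apcs, serum amyloid P, stood at 311 TPM with STAT5bCA and 66.5 with rIGF1, against 126 in aHepGHRkd and 177 in Control. Orm1, alpha-1-acid glycoprotein, stood at 2636 TPM with STAT5bCA and 873 with rIGF1, against 2091 in aHepGHRkd and 2360 in Control. The metallothionein gene Mt1 stood at 5473 TPM with STAT5bCA and 2599 with rIGF1, against 4972 in aHepGHRkd and 3726 in Control. For Orm1 and Mt1 STAT5bCA lay near aHepGHRkd and rIGF1 was the group that stood apart. In the authors' deposited table the rIGF1 ratio to aHepGHRkd was 0.388 for Orm1 (p = 0.0499), 0.481 for Mt1 (p = 0.0751) and 0.424 for Mt2 (p = 0.101), so that of these only Orm1 passed. Crp, C-reactive protein, stood at 258 TPM with STAT5bCA and 102 with rIGF1, against 122 in aHepGHRkd and 314 in Control, and there STAT5bCA was the group that stood apart. Wfdc21, which is in no list, stood at 979 TPM with STAT5bCA and 193 with rIGF1, against 548 in aHepGHRkd and 1374 in Control. Orm2 and Hamp (hepcidin) had the opposite sign, at 247 and 390 TPM for Orm2 and 4853 and 6867 TPM for Hamp with STAT5bCA and rIGF1, both within 2-fold. In the complement and coagulation list 1 of 30 passed, C6 of the membrane attack complex, at 72.1 TPM with STAT5bCA and 23.8 with rIGF1, against 155 in Control.

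In the cell cycle list 2 of 16 counted genes, the mitotic genes Ccnb2 and Cdc20, were higher with STAT5bCA and 0 lower, with a median of 0.39. Ccnb2 stood at 1.91 TPM with STAT5bCA and 0.465 with rIGF1, and Cdc20 at 2.05 and 0.585. These levels are low, and both genes reached 1 TPM only through the STAT5bCA value. The filter thus favoured their being higher, and their number supports nothing. Ccnd1, cyclin D1, stood at 47.3 TPM with STAT5bCA and 59.0 with rIGF1, against 69.7 in aHepGHRkd and 18.7 in Control. Among 20 liver injury and progenitor genes, Ly6d (12.5 TPM with STAT5bCA and 1.44 with rIGF1) and Igf2 (1.10 and 0.118) were higher, and Krt23 and Tff3 lower. Igf2, too, reached 1 TPM only through the STAT5bCA value. The interferon, antigen presentation, p53, ribosomal protein and oxidative phosphorylation lists had 0 members past 2-fold, with medians of 0.24, 0.07, -0.15, 0.20 and -0.12. With the series median subtracted, 1 interferon gene was at least 2-fold higher. In the ER stress list Sdf2l1 was higher and Hspa1a lower, of 20, and Hspa1a reached 1 TPM only through its rIGF1 value. Tff3 and Hspa1a came under 2-fold with the series median subtracted (log2 differences of -0.88 and -0.99).

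The 15 smallest ratios among genes of at least 5 TPM were far more modest than the largest. Krt23, a keratin of injured liver, stood at 2.60 TPM with STAT5bCA and 9.96 with rIGF1, against 9.04 in aHepGHRkd and 1.69 in Control. Serpina7, which encodes thyroxine-binding globulin, stood at 16.97 TPM with STAT5bCA and 40.8 with rIGF1, against 40.8 in aHepGHRkd and 18.5 in Control. Rassf3, a gene of the RAS-association family, stood at 48.6 TPM with STAT5bCA and 105 with rIGF1, against 84.4 in aHepGHRkd and 47.5 in Control. In Krt23, Serpina7 and Rassf3 STAT5bCA stood within 2-fold of Control and rIGF1 near aHepGHRkd. All 3 fell with STAT5bCA relative to aHepGHRkd in the authors' deposited table (ratios 0.293, 0.428 and 0.595, largest p = 0.000185, for Krt23). The other members were Cyp2b10, Elovl3, Igfbp3, Col3a1, Cyp2c55, Pcp4l1, Mgp, Cyp2d12, Cyp2d9, Gsn, Cyp2u1 and Mup20, with log2 ratios of -1.58 to -1.12. For Cyp2d9, Gsn, Cyp2u1, Mup20 and Rassf3 the difference was under 2-fold with the series median subtracted. Col3a1, Mgp and Gsn differed in another way. In the authors' deposited table their ratios to aHepGHRkd were 0.991, 0.939 and 0.911 with STAT5bCA and 2.42, 1.93 and 1.81 with rIGF1, with no p under 0.05, so by group value it was rIGF1 that stood away from aHepGHRkd.

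Several of the features lower in STAT5bCA belong to other tissues or cell types. They included 10 skeletal muscle genes, from a list assembled after the values were seen. All 10 were under 1 TPM with STAT5bCA and reached that minimum only through the rIGF1 value, so their being lower was set by the filter and by the choice of the list, and their number supports nothing. Of the 26 genes listed, with no filter, 23 had an rIGF1 value above the STAT5bCA value. Neb, nebulin, was higher with STAT5bCA. Acta1, skeletal muscle actin, stood at 0.0503 TPM with STAT5bCA and 3.36 with rIGF1, against 0.00951 in aHepGHRkd and 0.0473 in Control. Tnnc2, fast troponin C, was listed at 0 with STAT5bCA and stood at 2.39 TPM with rIGF1, against a listed 0 in aHepGHRkd and 0.0455 in Control. Summed over 26 muscle genes the level was 11.5 TPM with STAT5bCA and 31.7 with rIGF1, against 8.61 in aHepGHRkd and 10.4 in Control. These 10 transcripts were thus high in the rIGF1 value and in no other group, and the authors' deposited table called none of the 10 with rIGF1 against aHepGHRkd (Acta1 ratio 190, p = 0.101). Whether 1 library or all 6 carry them cannot be told from a group value, and their part in the other differences was not tested.

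All 15 counted stellate cell and fibroblast genes had log2 ratios below the series median, from -1.41 to -0.39, and 3 were at least 2-fold lower. Those were the collagens Col3a1, Col1a2 and Col1a1, of which Col1a1 came under 2-fold with the series median subtracted (-0.97). Col3a1 stood at 2.76 TPM with STAT5bCA and 7.52 with rIGF1, against 2.87 in aHepGHRkd and 2.57 in Control. The 16 genes of the list summed to 99.2 TPM with STAT5bCA and 163 with rIGF1, against 108 in aHepGHRkd and 104 in Control. In the authors' deposited table none of them was called in either group against aHepGHRkd, and the rIGF1 ratio of Col3a1 was 2.42 (p = 0.523). None of the stellate genes was listed at 0. The 6 counted cholangiocyte genes had a median of -0.63. Muc1 was past 2-fold, but it reached 1 TPM only through its rIGF1 value, so its being lower was favoured by the filter. The 10 listed genes, with no filter, summed to 43.4 TPM with STAT5bCA and 75.5 with rIGF1, against 56.0 in aHepGHRkd and 49.8 in Control. The share of these cell types in the differences of genes such as Igfbp3 was not tested.

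Other markers differed less. Of 19 hepatocyte identity genes, Trf was past 2-fold and the list median was -0.02, with summed levels of 212327 TPM with STAT5bCA and 205381 with rIGF1. The medians were -0.03 for 12 Kupffer cell and macrophage genes, -0.20 for 14 sinusoidal endothelial genes, -0.26 for 8 erythrocyte genes, 0.30 for 4 neutrophil genes and -0.35 for 4 lymphocyte genes, in which only Nkg7 of the lymphocyte list was past 2-fold, lower (a log2 ratio of -1.02, and -0.88 with the series median subtracted). Nkg7 reached 1 TPM only through its rIGF1 value, so nothing is read from its being lower. The adipose and pancreas list had 3 counted genes with a median of -0.19. Alb, albumin, was at 86394 TPM with STAT5bCA and 82897 with rIGF1, so hepatocyte transcripts dominated both.

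Set against aHepGHRkd, the authors' calls were more numerous with STAT5bCA than with rIGF1. Over the 11056 counted features the authors' deposited table called 291 higher (2.63%) and 80 lower (0.724%) with STAT5bCA, and 0 higher (0%) and 2 lower (0.0181%) with rIGF1, at their edgeR p under 0.05. The header of that table does not say whether this p is adjusted. Of the 159 features higher in STAT5bCA than rIGF1, 133 were called higher with STAT5bCA against aHepGHRkd in the authors' deposited table and 2 were called lower with rIGF1 there, which were Wfdc21 and Orm1. Of the 61 lower features, 16 were called lower with STAT5bCA in the authors' deposited table and 0 were called with rIGF1.

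By size alone the lower features were more evenly placed. In the authors' deposited table, 29 of the 61 stood at least 1.5-fold under aHepGHRkd with STAT5bCA and 29 at least 1.5-fold above it with rIGF1. Of the 159 higher features, 152 stood at least 1.5-fold above aHepGHRkd with STAT5bCA and 36 at least 1.5-fold under it with rIGF1, in the authors' deposited table. Over all 11056 counted features, 3.25% stood that far above and 1.10% that far under aHepGHRkd with STAT5bCA, and 1.05% above and 0.923% under with rIGF1, in the authors' deposited table. The features were chosen by the ratio of these same group values, which favours such positions, and the ratios share the aHepGHRkd value, so nothing is read from the shares.

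Set against Control, the 159 higher features fell into a few patterns by group value. With STAT5bCA, 74 of them stood at least 2-fold above Control, 74 within 2-fold and 11 at least 2-fold below. With rIGF1, 10 stood at least 2-fold above Control, 91 within 2-fold and 58 at least 2-fold below. Over all counted features, 1.32% stood at least 2-fold above Control and 0.624% below with STAT5bCA, and 1.18% above and 1.18% below with rIGF1. Features that differ 2-fold between the groups must differ from Control in at least one of them by some amount, so these positions are a description of the features chosen. In 40 features, as in Cish, Igfals, Urad and Fabp5, STAT5bCA was within 2-fold of Control and rIGF1 at least 2-fold below. In 57, STAT5bCA was above Control and rIGF1 within 2-fold of it, as in Serpina6. In 7, STAT5bCA was above Control and rIGF1 below it, as in Socs2, Prlr and Lifr. In 11, both groups were at least 2-fold below Control, as in Hsd3b5, Serpina1e and Slco1a1. In 34 features both groups were within 2-fold of Control, and in 10, as in Cyp2a4, both were above it. Over all counted features the first 5 of these patterns, in the order given, covered 0.660%, 0.751%, 0.0633%, 0.452% and 96.7%. A share for both groups above Control was not taken.

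Of the 61 lower features, STAT5bCA was at least 2-fold above Control in 1, within 2-fold in 50 and below in 10. With rIGF1, 25 were at least 2-fold above Control, 35 within 2-fold and 1 below. In 24, STAT5bCA was within 2-fold of Control and rIGF1 above, as in Krt23, Serpina7, Rassf3 and the muscle genes. Over all counted features that pattern covered 0.669%. Control mice also lack Cre, so a distance from Control covers Cre as well as Ghr.

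**Figure D5:**
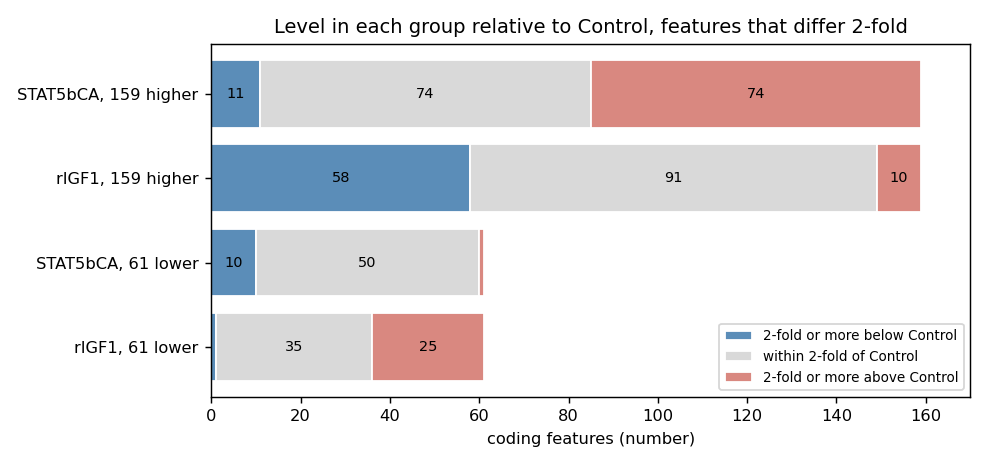
Number of coding features (horizontal axis) whose group value lies at least 2-fold below (blue), within 2-fold of (grey) or at least 2-fold above (red) Control, for aHepGHRkd_STAT5bCA and aHepGHRkd_rIGF1, among the 159 features at least 2-fold higher and the 61 at least 2-fold lower in STAT5bCA than in rIGF1. Of the 159, 74 lie above Control with STAT5bCA and 58 lie below it with rIGF1; of the 61, 50 lie within 2-fold with STAT5bCA and 25 lie above with rIGF1.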

How the data were processed

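PolyA-selected liver RNA of 24 mice in 4 groups of 6, taken from the labels, was sequenced, and 1 table made by the authors was used. Per the submitters' processing notes the authors used STAR, featureCounts and edgeR on mm9. Versions and strand use are not given in the sources used here. Per the file headers it holds 75798 exon-collapsed features, of which 75794 were read, since 4 lines were empty. TPM (a level scaled to length and library size) was deposited as 1 figure per group of 6, and no depth, single library or spread can be read from it. The deposited ratio is a linear fold from edgeR, and the deposited p-value, under 0.05 for a call, was read as already adjusted, although its header does not say so. The smallest, 9e-301, is shared by 3 features. The deposited signal column (highest TPM) and signed fold were not used further.

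Coding features of at least 1 TPM in the higher group were compared as log2((STAT5bCA TPM + 0.1)/(rIGF1 TPM + 0.1)) and counted at 2-fold, with Python 3.11.15, pandas 2.3.3 and numpy 2.4.6, in code tested on simulated data. The table has no values per animal, so no test of this contrast was made. The members and 35 gene lists were chosen with earlier results of these data known, and a skeletal muscle list was added after the values were seen. Genes named are the 15 largest and 15 smallest ratios of at least 5 TPM, list members past 2-fold or defining a list, every GH-STAT5 gene, and a few abundant or patterned genes (Serpina6, Lifr, Fabp5, Urad and Wfdc21) chosen after their values were seen; a few genes this rule names are not reported here. Symbols matched a RefSeq mouse symbol for 20699 of 20879 coding features, and promoters are RefSeq's, on GRCm38.p6. Alternatives changed the pseudocount, minimum, fold and scaling.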

Additional observations from a re-analysis of the deposited data

How the results depend on the processing

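The genes with the 15 largest and 15 smallest ratios, and the counted GH-STAT5 genes, had the same direction with a pseudocount of 1 TPM or none, with the median subtracted and with the quotient of the deposited ratios, where each gave a value (none for Sult3a2 and 2010106E10Rik without a pseudocount). A minimum or a fold leaves a ratio as it is. Of them, 6 (Cyp2d9, Gsn, Cyp2u1, Mup20, Rassf3 and Igfbp2) came under 2-fold with the median subtracted, 5 of them (all but Cyp2u1) with the quotient of the deposited ratios, and 4 (Mgp, Cyp2d12, Gsn and Cyp2u1) with a pseudocount of 1 TPM. Counts of features lower in STAT5bCA moved most. From 159 higher and 61 lower, a pseudocount of 1 TPM gave 21 lower (16 of them in lists, against 27). A minimum of 0.1 TPM, or none, gave 284 higher and 164 lower, and one of 5 TPM gave 103 and 22, with 10 lower in lists. Subtracting the median left 35 lower, and the quotient of the deposited ratios moved the median log2 ratio to 0.00213. Subtracting the median also raised counts of higher list members. These went from 17 to 18 for female-biased genes, 5 to 6 for acute phase and 2 to 3 for cell cycle. They went from 1 to 2 for complement and coagulation, and from 0 to 1 for both interferon and cholesterol synthesis. A fold of 1.5 gave 294 higher and 489 lower, with 86 and 72 in lists, so lower features became the majority over all coding features. A fold of 3 gave 90 and 13, with 11 lower in lists. Without the skeletal muscle and stellate lists, an alternative chosen after seeing the data, 158 were higher and 48 lower, with 14 lower in lists. Asking 2-fold beside the deposited p left 145 higher and 16 lower with STAT5bCA against aHepGHRkd, of 291 and 80. No paired analysis was possible because the table's columns carry 1 value per group and no replicate number, and leaving out each replicate was not run for the same reason. The lower set is mostly under 5 TPM and close to 2-fold, so single members of it are the least secure.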
